A study of Mus musculus with 8 samples.

Results

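Of 9 genes that regulate the conversion of vascular cells toward bone-like and cartilage-like states, or the deposition of calcium phosphate in the vessel wall, 6 had a row of their own among the 65956 transcript clusters of the array table: Tnfrsf11b, Tnfsf11, Mgp, Alpl, Sox9 and Ibsp. A transcript cluster is the array's unit of measurement and stands roughly for a gene. Members were found by the gene symbol of the platform annotation, and each of the 6 had 1 such row. Runx2, Enpp1 and Spp1 were not analysed here. In the whole table, 30142 genes had a row of 1 symbol, and 17868 of them were bright enough to be tested.

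The aortas came from males aged 10 weeks, and the ascending part was snap-frozen before RNA was extracted. All mice had a C57BL/6J background and came from crosses between heterozygotes. The Fbn1mgR/mgR group, which carries 2 copies of the mgR allele, comprised mgR611, mgR612, mgR613 and mgR614. The wild-type group comprised WT675, WT676, WT742 and WT744, so that each genotype had 4 arrays. Fbn1 encodes fibrillin-1, the core protein of extracellular microfibrils, and mgR lowers its expression in every cell that makes it, as a model of severe Marfan syndrome with aortic aneurysm. The genotypes rest on the labels, since Fbn1 was not analysed here. The labels do not say that each array is a separate animal, so the spread behind every p-value is that between these arrays and may be technical.

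Vascular calcification is held in balance by promoters and inhibitors. RUNX2 and SOX9 are the transcription factors that direct osteoblast and chondrocyte differentiation, and smooth muscle cells can take up both programmes in diseased arteries. Mineral grows where tissue-nonspecific alkaline phosphatase (Alpl) removes pyrophosphate, the inhibitor that ENPP1 produces, while matrix Gla protein (Mgp) keeps the arterial media free of mineral. Bone sialoprotein (Ibsp) and osteopontin (Spp1) are acidic phosphoproteins of bone matrix. RANKL (Tnfsf11) drives osteoclast formation through its receptor RANK, and osteoprotegerin (Tnfrsf11b) is the soluble decoy receptor that binds RANKL. Mice without Mgp or without osteoprotegerin calcify their arteries.

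Among the 6 measured members, the genes of both secreted inhibitors of calcification, osteoprotegerin and matrix Gla protein, had higher array signals in the Fbn1mgR/mgR aorta. Tnfrsf11b was 2.87-fold and Mgp was 1.55-fold above wild-type. No difference passed the threshold for the phosphatase gene Alpl or for Sox9, and the signals of Ibsp and Tnfsf11 lay in the range of dim signals in both genotypes. Of the 4 members bright enough to be tested, 2 were higher and 0 were lower at an adjusted p under 0.05 (limma; 0 lower at an unadjusted p under 0.05 too). Over all 32957 tested clusters, 1.54% were higher and 0.558% were lower by the same rule, or 2.1% in either direction. Those clusters include ones with several gene symbols or none, whereas each member has 1 symbol. The genotypes did not overlap in 2 of these 4 members, both with Fbn1mgR/mgR above wild-type, where 8.92% of tested clusters showed no overlap and 5.26% had every Fbn1mgR/mgR array above every wild-type array. A cluster was tested if its mean log2 signal over the 8 arrays exceeded 4.01, the median of all clusters, and adjusted p-values come from limma with Benjamini-Hochberg adjustment over all tested clusters.

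**Figure D1:**
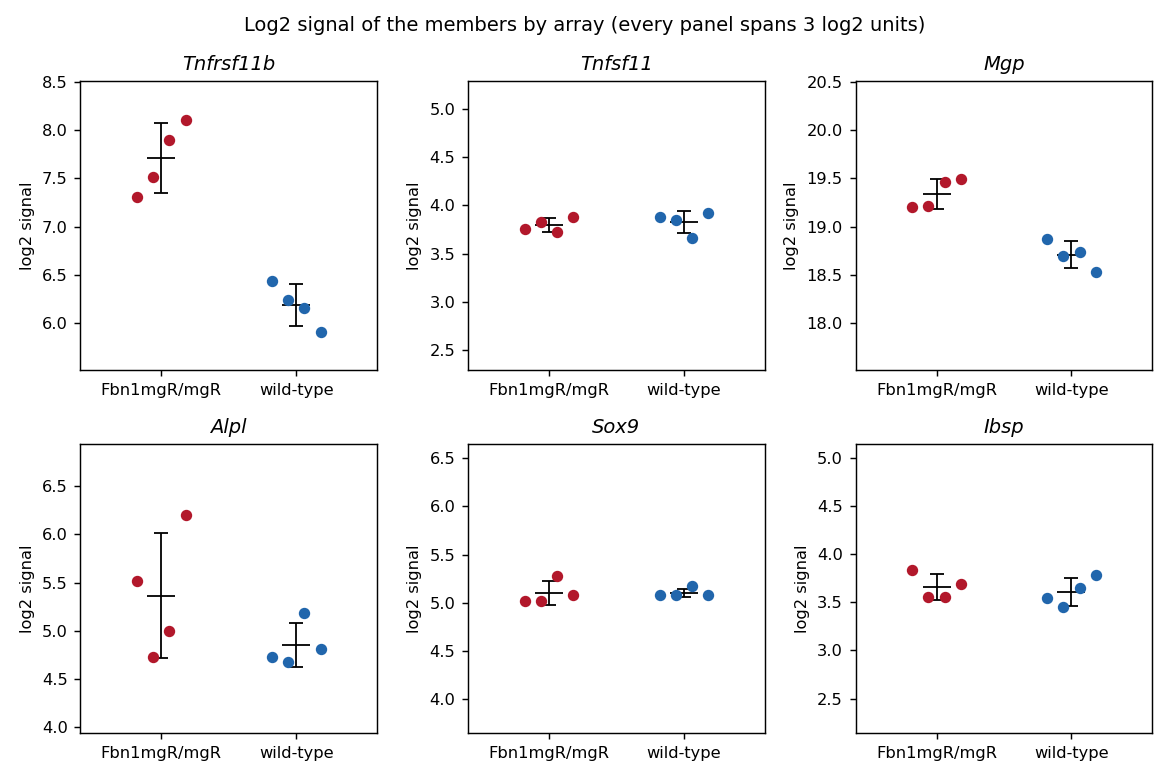
Log2 signal of the 6 measured members, with a point for each of the 4 Fbn1mgR/mgR arrays (red) and the 4 wild-type arrays (blue) and black marks for the mean ± SD. Every panel spans the same number of log2 units. The genotypes are apart in Tnfrsf11b and Mgp and overlap in Tnfsf11, Alpl, Sox9 and Ibsp.

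The arrays as a whole were alike. Medians of the log2 signals lay between 3.95 and 4.07, and Pearson correlations across clusters were 0.989 to 0.993 within Fbn1mgR/mgR, 0.989 to 0.992 within wild-type and 0.984 to 0.990 between genotypes. All 8 smooth muscle markers were well detected, with gene means of 8.73 to 19.5. The mean of 8 smooth muscle markers was 12.6 to 13.6 in Fbn1mgR/mgR and 13.2 to 13.9 in wild-type arrays, with none past the threshold. All 11 macrophage markers rose, and their mean was 9.95 to 10.9 in Fbn1mgR/mgR arrays, against 8.01 to 8.46 in wild-type arrays. Brown fat markers stood out in mgR614 (10.2, with 7.47 to 7.51 in the other Fbn1mgR/mgR arrays) and in WT676 (10.4, with 6.81 to 8.39 in the other wild-type arrays). In bulk tissue, a lower number of cells of a type and less RNA per cell cannot be told apart.

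The decoy receptor gene Tnfrsf11b had log2 signals of 7.31, 7.51, 7.90 and 8.11 in the Fbn1mgR/mgR arrays, in the order named above for every gene. In wild-type arrays they were 6.44, 6.24, 6.16 and 5.91. Every Fbn1mgR/mgR array lay above every wild-type array, with a gap of 0.87 between the closest arrays of the 2 genotypes. The means were 7.71 ± 0.363 and 6.19 ± 0.219 (Fbn1mgR/mgR and wild-type, SD, n = 4 each). The difference of 1.52 on the log2 scale (SE 0.196, 95% interval 1.08 to 1.96) passed the threshold (limma adjusted p = 0.00522). Only 0.583% of tested clusters had a larger rise. The call held in all 19 alternative settings, with adjusted p from 0.00308 to 0.0407, and the difference was 1.40 without mgR614 and WT676, the arrays highest in brown fat markers. The 11 macrophage markers moved with it between the genotypes, and their part in this result was not tested.

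Its ligand gene Tnfsf11, which encodes RANKL, was dim in both genotypes. Log2 signals were 3.75, 3.83, 3.72 and 3.88 in Fbn1mgR/mgR arrays, against 3.88, 3.85, 3.66 and 3.92 in wild-type arrays. The ranges overlapped almost fully, and the means differed by -0.03 (3.80 ± 0.0733 in Fbn1mgR/mgR and 3.83 ± 0.115 in wild-type, SD, n = 4 each; exact two-sided permutation p = 0.743). Olfactory receptor genes, which serve as a gauge of dim signals in aorta, had a median signal of 3.38 over 1083 genes and a 95th percentile of 4.13. Tnfsf11 was thus within the range of dim signals, and it was not among the bright clusters whose p-values were adjusted. A small difference in so dim a transcript could be missed. The smallest p that 4 against 4 arrays allow is 0.0286.

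The receptor gene Tnfrsf11a, which encodes RANK, was measurable and did not pass. Its signals were 6.50, 6.52, 6.40 and 6.22 in Fbn1mgR/mgR arrays, against 5.98, 6.21, 6.55 and 6.27 in wild-type arrays. The ranges overlapped, and the difference was 0.16 (95% interval -0.16 to 0.48, limma adjusted p = 0.710). An increase in signal of more than 1.39-fold lies outside that interval.

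Matrix Gla protein, a vitamin K-dependent inhibitor of arterial mineral, gave one of the brightest signals of the table. Mgp had log2 signals of 19.20, 19.21, 19.46 and 19.49 in Fbn1mgR/mgR arrays, against 18.87, 18.69, 18.74 and 18.53 in wild-type arrays. The genotypes did not overlap, and the closest arrays were 0.33 apart. Means were 19.3 ± 0.156 and 18.7 ± 0.141 (Fbn1mgR/mgR and wild-type, SD, n = 4 each), a rise of 0.63 (SE 0.0944, 95% interval 0.42 to 0.84, limma adjusted p = 0.0101). Among tested clusters, 3.46% had a larger rise.

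The highest value in the table was 19.93, and array signals saturate near the top of the scale, so the 1.55-fold difference is one of signals and need not be one of transcript amounts. A mean within 1 log2 unit of the highest value was found in 137 tested clusters. Mgp was the single cluster called higher among these 137, of which 0 were called lower, and the next largest rise among them was 0.16. The Mgp call held without any 1 array, at adjusted p from 0.0123 to 0.0338. It was lost without both mgR614 and WT676, where the difference was 0.58 with 3 arrays of each genotype (adjusted p = 0.0747; 0.00620 to 0.0747 over all alternatives).

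Tnfrsf11b and Mgp ordered the arrays in nearly the same way. From high to low, both had mgR614, mgR613, mgR612, mgR611, WT675, and then WT676 and WT742 in either order, and WT744 last. The macrophage marker mean was highest in mgR612 among Fbn1mgR/mgR arrays and in WT744 among wild-type arrays, and the brown fat marker mean in mgR614 and WT676. With the brown fat marker mean as a covariate, the Mgp difference was 0.64 (limma adjusted p = 0.016). Beyond that fit, the part of either cell type in the rise of Mgp and in these orders was not tested.

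**Figure D2:**
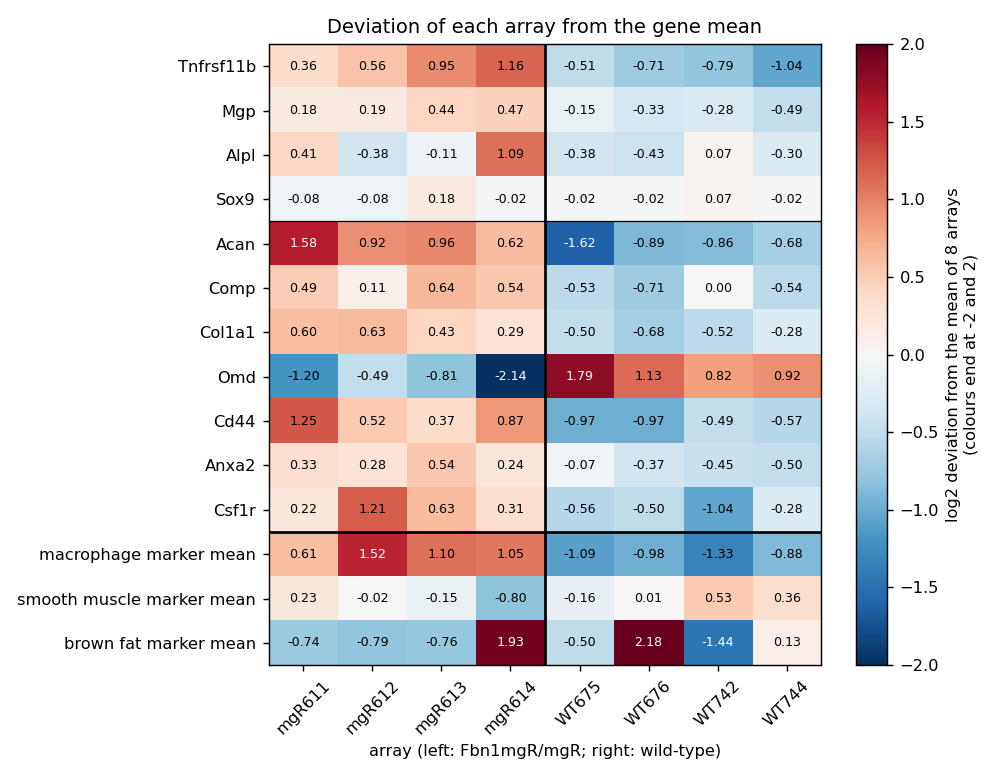
Log2 deviation of each array from the mean of all 8 arrays for the 4 tested members (top block), for other genes past the threshold (middle block) and for the means of 3 marker lists (bottom block). Columns are the Fbn1mgR/mgR arrays and then the wild-type arrays, and each cell prints its value. Tnfrsf11b and Mgp deviate upward in all 4 Fbn1mgR/mgR arrays, as does the macrophage marker mean, while the brown fat marker mean deviates upward most in WT676 and mgR614.

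Alkaline phosphatase, the ectoenzyme that removes the mineral inhibitor pyrophosphate, varied most among the members. Alpl signals were 5.52, 4.73, 5.00 and 6.20 in Fbn1mgR/mgR arrays, against 4.73, 4.68, 5.18 and 4.81 in wild-type arrays. Only mgR611 and mgR614 were above every wild-type array, and mgR612 was as low as WT675. The SD was 0.647 in Fbn1mgR/mgR and 0.226 in wild-type (n = 4 each), where the median SD over tested clusters was 0.207 and 0.191. The difference of 0.51 did not exceed this spread (SE 0.285, 95% interval -0.13 to 1.15, limma adjusted p = 0.478), and the interval includes both no change and a 2.22-fold rise. The difference was 0.23 without mgR614 and 0.18 without both mgR614 and WT676. Brown fat markers averaged 10.2 in mgR614, the array with the highest Alpl, and 10.4 in WT676, the array with the lowest Alpl. With the brown fat marker mean as a covariate, the Alpl difference was 0.53 (limma adjusted p = 0.442). Beyond that fit, the part of brown fat in the Alpl values was not tested.

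Sox9, the transcription factor of cartilage formation, had nearly equal signals in all arrays. They were 5.02, 5.02, 5.28 and 5.08 in Fbn1mgR/mgR arrays, against 5.08, 5.08, 5.17 and 5.08 in wild-type arrays. The means were 5.10 ± 0.123 and 5.10 ± 0.0450 (Fbn1mgR/mgR and wild-type, SD, n = 4 each; limma adjusted p = 0.995). The 95% interval of the difference, -0.22 to 0.21, leaves out a rise in signal above 1.16-fold. That bound is one of signals and need not be one of transcript amounts.

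Bone sialoprotein, an acidic glycoprotein of mineralised matrix, was at the level of dim signals. Ibsp signals were 3.84, 3.55, 3.55 and 3.69 in Fbn1mgR/mgR arrays, against 3.54, 3.45, 3.65 and 3.78 in wild-type arrays. All 8 values were below 4.13, the 95th percentile of olfactory receptor genes, and the genotypes overlapped (difference 0.05, exact two-sided permutation p = 0.571).

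**Figure D3:**
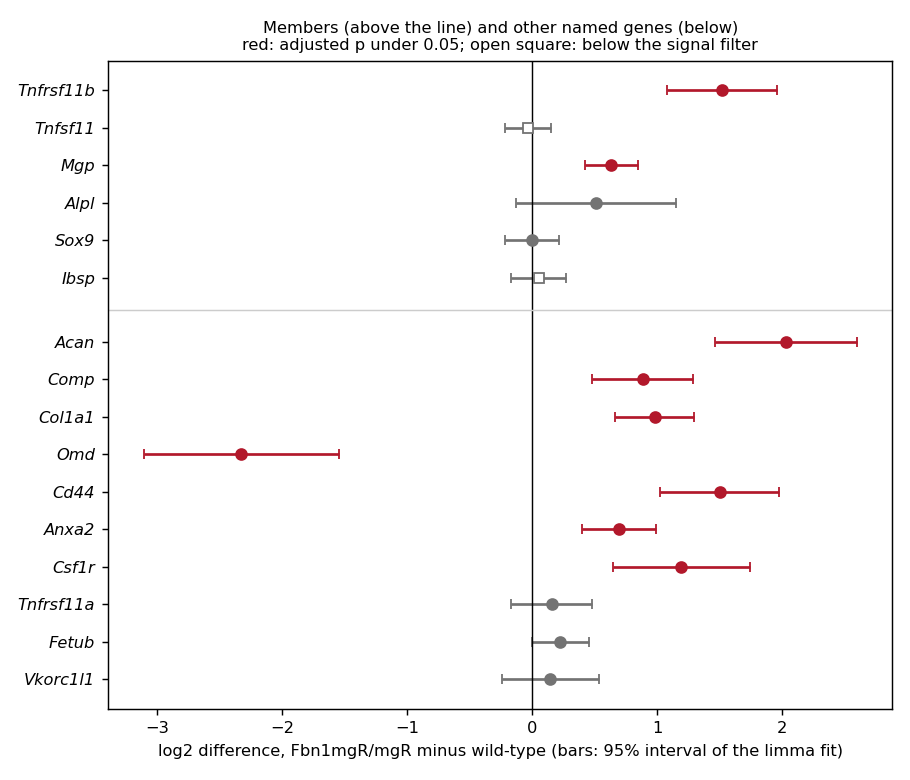
Log2 difference, Fbn1mgR/mgR minus wild-type, with its 95% interval from the limma fit, for the 6 measured members (above the grey line) and 10 other named genes (below it). Red marks an adjusted p under 0.05, and open squares mark members below the signal filter. Tnfrsf11b and Mgp lie above 0 with their whole intervals, while the interval of Alpl runs from -0.13 to 1.15.

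The profiles most like those of the 2 members that rose were found by the root mean square difference between mean-centred log2 signals over the 8 arrays, among 12698 named genes. For Tnfrsf11b the 3 closest were Dpep2 (0.149), Lair1 (0.197) and Morrbid (0.207), all in log2 units. Their own log2 differences were 1.46, 1.30 and 1.47. For Mgp they were Thyn1 (0.0694), Kif26b (0.0769) and Far1 (0.0813), with log2 differences of 0.55, 0.58 and 0.57. These genes were chosen for their likeness over the same arrays, so their differences are a description.

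The wider pathways were described with 6 lists of other genes, 88 in all, of which 84 had a row and 67 were bright enough to be tested. Of these 67, 6 rose (8.96%) and 1 fell (1.49%), beside 1.54% and 0.558% of all tested clusters. The median difference was 0.02 beside -0.02 over all tested clusters. At an unadjusted limma p under 0.05, 12 were higher and 13 were lower, where 7.45% of all tested clusters were higher and 6.72% were lower. The shares over all tested clusters, with and without adjustment, stand beside the counts of each list below as well. All tested clusters include those with several gene symbols or none, unlike the list genes. The share over all tested clusters is thus not that of an equal set. With only clusters of 1 symbol, 480 clusters were higher and 134 lower at a limma adjusted p under 0.05. A gene can have more than 1 such cluster, so these counts give no share of the 17868 genes tested. The 6 that rose were Acan, Comp, Col1a1, Cd44, Anxa2 and Csf1r, and the gene that fell was Omd. The number that rose was 3 without mgR613, mgR614, WT676 or WT744, and 2 without both mgR614 and WT676. Acan and Col1a1 were past the threshold in all 19 alternative settings.

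**Figure D4:**
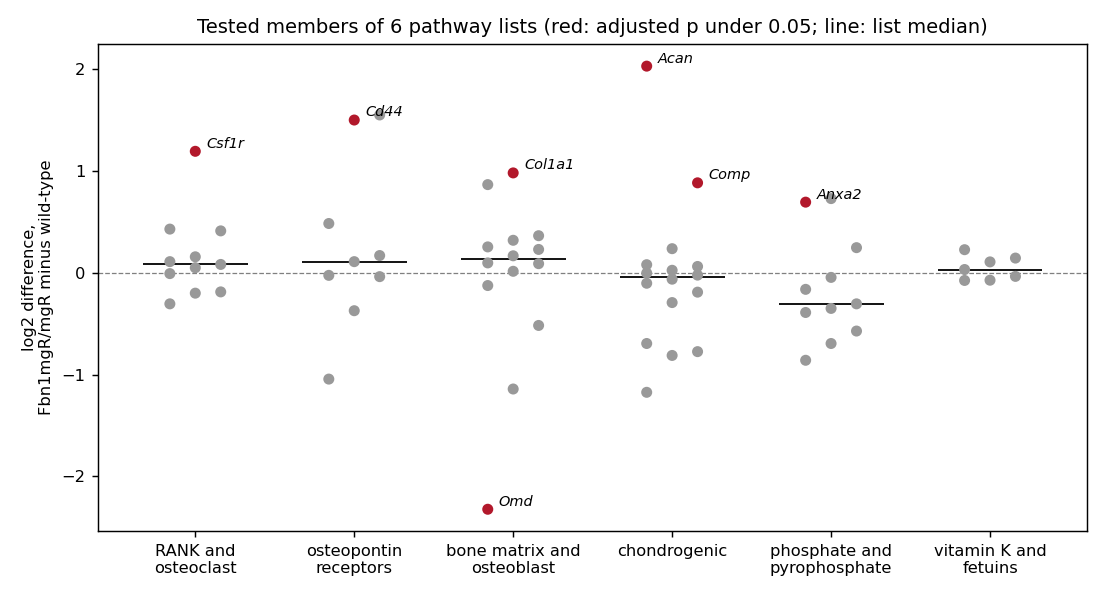
Log2 difference, Fbn1mgR/mgR minus wild-type, of every tested gene of the 6 lists, with a horizontal line at each list's median and red points for an adjusted p under 0.05. Acan lies highest and Omd lowest, and the median of the phosphate and pyrophosphate list is -0.31.

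Of 20 chondrogenic genes, all had a row and 16 were tested; 2 rose and none fell (limma; 2 were higher and 5 lower at p under 0.05 before adjustment). Acan, which encodes the cartilage proteoglycan aggrecan, had log2 signals of 8.74, 8.08, 8.12 and 7.78 in Fbn1mgR/mgR arrays, against 5.54, 6.27, 6.30 and 6.48 in wild-type arrays. The genotypes were 1.30 apart at their closest, and the mean difference of 2.03 amounts to 4.09-fold (SE 0.252, limma adjusted p = 0.00439). Unlike Tnfrsf11b and Mgp, Acan was lowest in mgR614 among the Fbn1mgR/mgR arrays.

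Comp, which encodes cartilage oligomeric matrix protein, had signals of 6.61, 6.23, 6.77 and 6.66 in Fbn1mgR/mgR arrays, against 5.60, 5.42, 6.13 and 5.58 in wild-type arrays. The groups were separated by only 0.10, and the rise of 0.89 (limma adjusted p = 0.0397) missed the threshold without mgR611, mgR613, mgR614, WT675, WT676 or WT744, at adjusted p from 0.0842 to 0.122 (0.0196 to 0.213 over all alternatives).

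The collagens that define hyaline cartilage stayed near the dim range. Col2a1, the type II collagen gene, averaged 4.34 ± 0.0762 in Fbn1mgR/mgR and 4.28 ± 0.0492 in wild-type arrays (SD, n = 4 each; limma adjusted p = 0.811). Col9a1, Col9a2, Col9a3, Col11a1 and Col11a2 had differences between -0.06 and 0.08, and Col10a1, Matn1, Matn3 and Snorc were below the signal filter. The SOX9 partners Sox5 (-0.19) and Sox6 (-0.81, limma adjusted p = 0.113) did not pass, nor did the small proteoglycan gene Epyc (-1.18, adjusted p = 0.133). Fbn1mgR/mgR arrays lay wholly below wild-type arrays in Cytl1 (-0.775, adjusted p = 0.153) and Hapln1 (-0.29, adjusted p = 0.206), which did not pass. Over all tested clusters, 3.65% showed this. The list's median difference was -0.04.

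Of 21 bone matrix and osteoblast genes, 20 had a row and 14 were tested, of which 1 rose and 1 fell (limma; 5 were higher and 3 lower at p under 0.05 before adjustment). The type I collagen gene Col1a1 had signals of 9.29, 9.32, 9.12 and 8.98 in Fbn1mgR/mgR arrays, against 8.19, 8.01, 8.17 and 8.41 in wild-type arrays, a rise of 0.98 with no overlap (SE 0.141, limma adjusted p = 0.00837). Its partner chain Col1a2 had a difference of 0.37 (adjusted p = 0.344) with overlapping genotypes.

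Omd encodes osteomodulin, a leucine-rich proteoglycan of bone matrix. Its signals were 10.93, 11.64, 11.32 and 9.99 in Fbn1mgR/mgR arrays, against 13.92, 13.26, 12.95 and 13.05 in wild-type arrays. Every Fbn1mgR/mgR array was lower, and the log2 difference of -2.33 (SE 0.348, limma adjusted p = 0.0103) passed in all 19 alternative settings. Ogn, the related proteoglycan osteoglycin, was lower in all 4 Fbn1mgR/mgR arrays as well, at -1.14, and missed the threshold (adjusted p = 0.0593). Ogn passed in 5 of the 19 alternative settings, with limma adjusted p from 0.0304 to 0.143 over all alternatives.

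Of the bone list, 6 genes were below the signal filter. The osteoblast transcription factor Sp7 averaged 3.22 ± 0.0768 in Fbn1mgR/mgR and 3.17 ± 0.0435 in wild-type arrays (SD, n = 4 each), below the median of olfactory receptor genes. The others below the filter were Msx2, Dlx3, Bglap2, Dmp1 and Mepe. Osteocalcin, Bglap, was at 4.32 and 4.45 (means of Fbn1mgR/mgR and wild-type arrays; limma adjusted p = 0.588), and its near-identical relatives make the value of 1 gene uncertain. The osteocyte endopeptidase gene Phex averaged 5.87 and 5.61, the parathyroid hormone receptor gene Pth1r 5.23 and 5.22, and the secretory kinase gene Fam20c 5.70 and 5.60 (means of Fbn1mgR/mgR and wild-type arrays). These 3 genes were bright enough to be tested and did not pass (limma adjusted p = 0.733, 0.971 and 0.768 in that order). The RUNX2 partner Cbfb (0.32) and the homeobox gene Dlx5 (-0.52) did not pass (adjusted p = 0.298 and 0.302). Postn (0.87) and Sparc (0.17) were higher and did not pass either (limma adjusted p = 0.153 and 0.293). Fbn1mgR/mgR arrays lay wholly above wild-type arrays in 2 tested genes of the list, Col1a1 and Sparc. They lay wholly below in 2, Omd and Ogn. Over all tested clusters, 5.26% and 3.65% showed this.

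In the list of phosphate and pyrophosphate handling, 12 of 14 genes had a row and 11 were tested. Ank, which encodes the protein that releases pyrophosphate precursors from cells, was not analysed here. The list's median difference was -0.31, but only Anxa2 passed, and it was higher (limma; 2 were higher and 4 lower at p under 0.05 before adjustment). Anxa2, which encodes an annexin found on mineralising matrix vesicles, had signals of 13.25, 13.20, 13.46 and 13.16 in Fbn1mgR/mgR arrays, against 12.85, 12.55, 12.47 and 12.42 in wild-type arrays. The groups did not overlap, and the rise of 0.70 (limma adjusted p = 0.0292) missed the threshold without mgR611, mgR612, mgR613, mgR614, WT676, WT742 or WT744, at adjusted p from 0.0556 to 0.103 (0.0180 to 0.121 over all alternatives).

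Several transporters and ectoenzymes of this list had lower values that did not pass. The phosphate exporter gene Xpr1 was at -0.57 (limma adjusted p = 0.131), the adenosine transporter gene Slc29a1 at -0.39 (adjusted p = 0.262) and Enpp3, a relative of Enpp1, at -0.70 (adjusted p = 0.261). The genotypes did not overlap in Xpr1, Slc29a1 or Enpp3, nor in the phosphate importer gene Slc20a2 (-0.31). Fbn1mgR/mgR arrays lay wholly below wild-type arrays in 3.65% of all tested clusters. In all 4 of these genes mgR614 had the lowest value of the 8 arrays. That array had the lowest smooth muscle marker mean (12.6) and the highest brown fat marker mean among Fbn1mgR/mgR arrays (10.2). Beyond the fit with the brown fat covariate, the part of smooth muscle or brown fat in these values was not tested. Smpd3, a sphingomyelinase gene, had the largest positive difference of the list, 0.73, with no overlap (adjusted p = 0.112). The largest negative difference, -0.86, was that of Entpd1, in which the genotypes overlapped (limma adjusted p = 0.268).

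No gene for the enzymes that activate matrix Gla protein passed the threshold. Of 8 genes in the list of vitamin K metabolism and fetuins, 7 had a row and were tested, and 0 passed the limma threshold (0 at an unadjusted p under 0.05). The carboxylase gene Ggcx averaged 7.42 ± 0.172 in Fbn1mgR/mgR and 7.49 ± 0.0616 in wild-type arrays (SD, n = 4 each; limma adjusted p = 0.874). The reductase genes Vkorc1 and Vkorc1l1, which recycle vitamin K, had differences of 0.03 and 0.15 (adjusted p = 0.960 and 0.794). Ahsg, the gene of the circulating mineral inhibitor fetuin-A, spanned 9.29 to 10.9 in Fbn1mgR/mgR and 9.48 to 10.6 in wild-type arrays, and Fetub had a difference of 0.23 (adjusted p = 0.358).

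Of 17 genes of RANK signalling and osteoclasts, all had a row and 11 were tested, of which 1 rose and none fell (limma; 1 was higher and 0 lower at p under 0.05 before adjustment). Csf1r, the receptor for the macrophage growth factor CSF1, had signals of 8.52, 9.51, 8.93 and 8.61 in Fbn1mgR/mgR arrays, against 7.73, 7.79, 7.25 and 8.02 in wild-type arrays. The genotypes did not overlap. Its rise of 1.20 (adjusted p = 0.0407) missed the threshold without mgR612, mgR613, mgR614, WT675, WT676, WT742 or WT744, at adjusted p from 0.0588 to 0.105 (0.0255 to 0.141 over all alternatives). Csf1r is also 1 of the 11 macrophage markers.

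The genes that carry the osteoclast's bone-resorbing function did not pass. The protease gene Ctsk (0.41), the phosphatase gene Acp5 (-0.20) and the transcription factor gene Nfatc1 (0.08) had limma adjusted p of 0.376, 0.842 and 0.853. The calcitonin receptor gene Calcr, the osteoclast receptor gene Oscar, Ocstamp, the proton pump subunit gene Atp6v0d2 and Mmp9 were below the signal filter. Dcstamp, which encodes a cell fusion protein of osteoclasts and other myeloid cells, was below the filter as well and is named after its values were seen. It had signals of 4.63, 4.15, 4.58 and 3.98 in Fbn1mgR/mgR arrays, against 3.57, 3.74, 3.71 and 3.40 in wild-type arrays. Those groups did not overlap (limma adjusted p = 0.0949 with no signal filter, two-sided exact permutation p = 0.0286). The genotypes were also apart in Atp6v0d2 and Mmp9, at the same permutation p. Atp6v0d2 was higher, at 3.58 to 3.75 in Fbn1mgR/mgR against 3.44 to 3.54 in wild-type arrays. Mmp9 was lower, at 3.66 to 3.86 against 3.90 to 4.03. Over all tested clusters, which do not include these dim genes, 8.92% showed no overlap.

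Receptors for osteopontin and bone sialoprotein formed the last list, and all 9 were tested, of which 1 rose and none fell (limma; 2 were higher and 1 lower at p under 0.05 before adjustment). Cd44, which encodes a cell surface receptor of hyaluronan and osteopontin, was at 8.27, 7.54, 7.39 and 7.89 in Fbn1mgR/mgR arrays, against 6.05, 6.05, 6.53 and 6.45 in wild-type arrays. The genotypes were 0.86 apart at their closest, and the rise of 1.50 (SE 0.212, limma adjusted p = 0.00762) held without any 1 array (0.0119 to 0.0307). It was lost without both mgR614 and WT676 (adjusted p = 0.0819; 0.00463 to 0.0819 over all alternatives). The 11 macrophage markers moved with Cd44 between the genotypes. Within each genotype, Cd44 was highest in the array with the lowest macrophage marker mean, mgR611 (9.95) and WT742 (8.01). The part of macrophages in the rise of Cd44 was not tested.

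The integrin subunits of that list did not pass. Itga5 had the largest difference, 1.55, but spread over 12.8 to 15.3 in Fbn1mgR/mgR and 11.0 to 13.4 in wild-type arrays (limma adjusted p = 0.340). Itga8 was at -1.05 with no overlap (limma adjusted p = 0.114). Of the alternatives, Itga8 passed only with the brown fat covariate (adjusted p = 0.0456). Fbn1mgR/mgR arrays lay wholly below wild-type arrays in 3.65% of all tested clusters. Itgav, Itgb1, Itgb3 and Itgb5 had differences between -0.04 and 0.17.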

How the data were processed

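Log2 signals of 8 Affymetrix Clariom D mouse arrays were analysed as the authors deposited them. Transcriptome Analysis Console is the tool named, per the submitters' processing notes; the version and the normalization method were not given in the sources used here. Groups follow the genotype in the labels.

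Of 65956 rows, 30604 carried 1 gene symbol in the platform annotation, 2146 several and 33206 none; 22818 rows matched RefSeq (GRCm38.p6) by gene ID, and 827 symbols were updated that way. The brightest row stood for a gene. Linear models were fitted on all rows with limma 3.58.1 (R 4.3.3), using eBayes with a trend on intensity, and p-values were adjusted over the 32957 rows with a mean above 4.01. Differences are Fbn1mgR/mgR minus wild-type, with a threshold of 0.05. No detection p-values were used. The number of arrays limits the precision; the median standard error of a difference was 0.151. Tables were handled in pandas 2.3.3 under Python 3.11.15.

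Named genes were all members, up to 6 genes of each list with the smallest p among those past the threshold, or otherwise the 2 with the smallest p, Tnfrsf11a and Ank, and the 3 closest profiles of each member that rose; other genes that describe the lists were chosen after their values were seen. Members, lists and tests were chosen with earlier results of these data known. Alternatives were other variance models, array weights, other signal filters, other normalization, a brown fat covariate, only rows with 1 symbol and each array left out. Chosen after seeing the data were a variance model fitted on tested rows alone, and the fit without mgR614 and WT676, which were highest in brown fat markers.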

Additional observations from a re-analysis of the deposited data

Results flagged for a closer look

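Of 52 groups of 4 arrays examined for members, named genes and marker lists, 2 held an array far from the other 3, where chance gives about 1 in 20. Sox9 was at 5.17 in WT742 and at 5.08 in each of the other wild-type arrays, a gap of 0.09 that is small beside the median SD of 0.191. The mean of the brown fat markers was 10.2 in mgR614 and 7.47 to 7.51 in the other Fbn1mgR/mgR arrays; values without this array stand beside the results they change.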

How the results depend on the processing

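No paired analysis was possible because the genotypes share no replicate numbers. Each member had 1 row, so averaging rows changes nothing. Ibsp and Tnfsf11 were in every fit on all rows, but entered the adjustment only without a filter (limma adjusted p = 0.949 and 0.966). Clusters higher numbered 507 (272 to 524 with 1 array left out; 171 without mgR614 and WT676) and clusters lower 184 (66 to 146; 77; 99 with no filter). The 2 members that rose stayed 2 in each of 18 alternatives and were 1 without mgR614 and WT676; 0 fell throughout. List genes that rose numbered 6 (3 to 4 with 1 array left out, 3 with no filter, 2 without mgR614 and WT676). Those that fell numbered 1 (1 to 2 with 1 array left out, 2 with only bright clusters or only clusters with 1 symbol, 3 with the brown fat covariate). Beside Omd, the genes that fell there were Ogn and, with the covariate, also Itga8. The Sox9 difference, -0.0025, turned positive with array weights (0.0039), with quantile normalization (0.010) and without mgR611 (0.024), mgR612 (0.024), mgR614 (0.0042) or WT742 (0.020), and with 1 array left out it ran from -0.0625 to 0.024, all smaller than its standard error of 0.0964. The cause of these changes was not tested. Signals in the dim range limit what can be seen of Ibsp and Tnfsf11, and the top of the scale, 19.93, limits Mgp.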
